A study of Mus musculus with 63 samples.

Results

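The Rab GTPase genes are the largest branch of the Ras family of small GTPases, and they are described here across hippocampal regions, genotypes, denervation and a ribonucleoprotein pulldown in mouse tissue cultures. Members were all protein-coding genes whose symbol is Rab followed by a number and at most a letter and a further digit, which gave 59 of the 55291 gene symbols in the count tables. Each member was assigned by textbook localisation to 1 of 7 classes, namely ER and Golgi (14 genes), Golgi to plasma membrane, tubules and cilia (8), synaptic vesicle and regulated exocytosis (8), early endosome (7), recycling endosome (9), late endosome and lysosome (9), and other (4).

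Rab proteins act as switches on the surface of transport vesicles and organelles. A guanine nucleotide exchange factor (GEF) loads a Rab with GTP, the GTP-bound form recruits effectors such as tethers and motor proteins, and a GTPase-activating protein (GAP) returns it to the GDP-bound form, which a GDP dissociation inhibitor (GDI) lifts off the membrane. In neurons, Rab3 and Rab27 proteins serve on synaptic and secretory vesicles, Rab4, Rab5 and Rab11 proteins route receptors through endosomes of dendrites and spines, and Rab1, Rab2 and Rab6 proteins operate between the ER and the Golgi apparatus. In glia and macrophage-lineage cells, Rab7, Rab29 and Rab32 proteins serve the lysosomal system.

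All samples were organotypic entorhino-hippocampal cultures prepared from mice of either sex at postnatal days 3 to 5 and matured for at least 18 days in vitro. Synpo+/+ cultures came from C57BL/6J mice, and Synpo-/- cultures from the B6.129-Synpotm1Mndl/Dllr line, which lacks synaptopodin, an actin-associated protein of the spine apparatus. Lesioned cultures (ECL) had their entorhinal cortex cut off with a scalpel, which severs the perforant path to the hippocampus, and controls were not cut. Regional libraries each came from the dentate gyrus (DG) or the CA3 area dissected out of a single culture, 3 days after the lesion in the ECL groups: Synpo+/+ CA3 control (n = 2) and ECL (n = 3), Synpo+/+ DG control (n = 4) and ECL (n = 7), Synpo-/- CA3 control (n = 6) and ECL (n = 6), and Synpo-/- DG control (n = 7) and ECL (n = 4). For the pulldown, 6 cultures per replicate were lysed in cycloheximide, which holds ribosomes on mRNA. An antibody to synaptopodin on protein A beads precipitated RNA from this lysate (coIP), and an aliquot of the precleared lysate served as input. There were 5 coIP and 5 input libraries each from Synpo+/+ control and Synpo+/+ ECL cultures and 2 of each from Synpo-/- cultures, whose lesion state the labels do not give.

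Library totals ranged from 14055930 to 46043990 counts in the regional set and from 11601154 to 53682143 counts in the coIP set. Levels are given as CPM, counts scaled by the TMM effective library size within each set, and as TPM, which is scaled by transcript length as well, where genes are compared with each other. Synpo itself did not separate the genotypes, with 30.4 to 69.3 CPM in the regional libraries labelled Synpo-/- and 19.1 to 38.4 CPM in the Synpo+/+ ones. Counts are summed over the whole gene and the deleted part is not given in the sources used here, so this does not test the label, and the mutant groups are called libraries labelled Synpo-/- throughout. Prox1, the transcription factor that marks granule cells, was at 12.7 to 44.0 CPM in all CA3 libraries and at 120 to 217 CPM in all DG libraries except Synpo+/+ DG ECL replicate 5, where it was 15.5 CPM. The lesion, region and genotype results on Rab genes that include this library are therefore also given without it. Reads were counted without regard to strand, so 4 members that share most of their exonic bases with another gene are uncertain: Rab43 (75.4% of its bases), Rab4b (65.0%), Rab2b (64.0%) and Rab24 (62.4%).

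Rab mRNA levels spanned several orders of magnitude in the precleared lysate of whole Synpo+/+ control cultures (input, n = 5). Rab7, which drives late endosome and lysosome traffic, stood at 1410 ± 62.2 TPM (mean ± SD), the highest of the 59. It was followed by Rab3a, the main Rab of synaptic vesicles, at 566 ± 136 TPM, by Rab2a at 412 ± 25.5 TPM and by Rab1a at 332 ± 14.8 TPM, the latter pair both ER-to-Golgi Rabs. Rab31 (324 ± 52.5 TPM), Rab1b (316 ± 74.3), Rab18 (251 ± 18.4) and Rab6a (233 ± 27.9) completed the 8 highest. Rab2a lay more than 1 SD of Rab3a below it, while Rab1a, Rab31 and Rab1b lay within the SD of Rab1b, so the order of these 3 is not resolved. Among the members that passed the count filter in these libraries, Rab43 (0.386 TPM), Rab37 (1.66), Rab38 (1.93) and Rab4b (4.28) were lowest. Rab17 and Rab25, which serve epithelial polarity, and Rab44 and Rab19 held at most 29 counts in any of the 63 libraries. Rab17, Rab25 and Rab44 were not tested in any coIP comparison, and Rab19 was tested only in the libraries labelled Synpo-/-. The order was not the same in the regional set. In the control groups of both regions and genotypes Rab7 held rank 3, at 217 to 347 TPM, behind Rab2a and Rab6a.

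**Figure D1:**
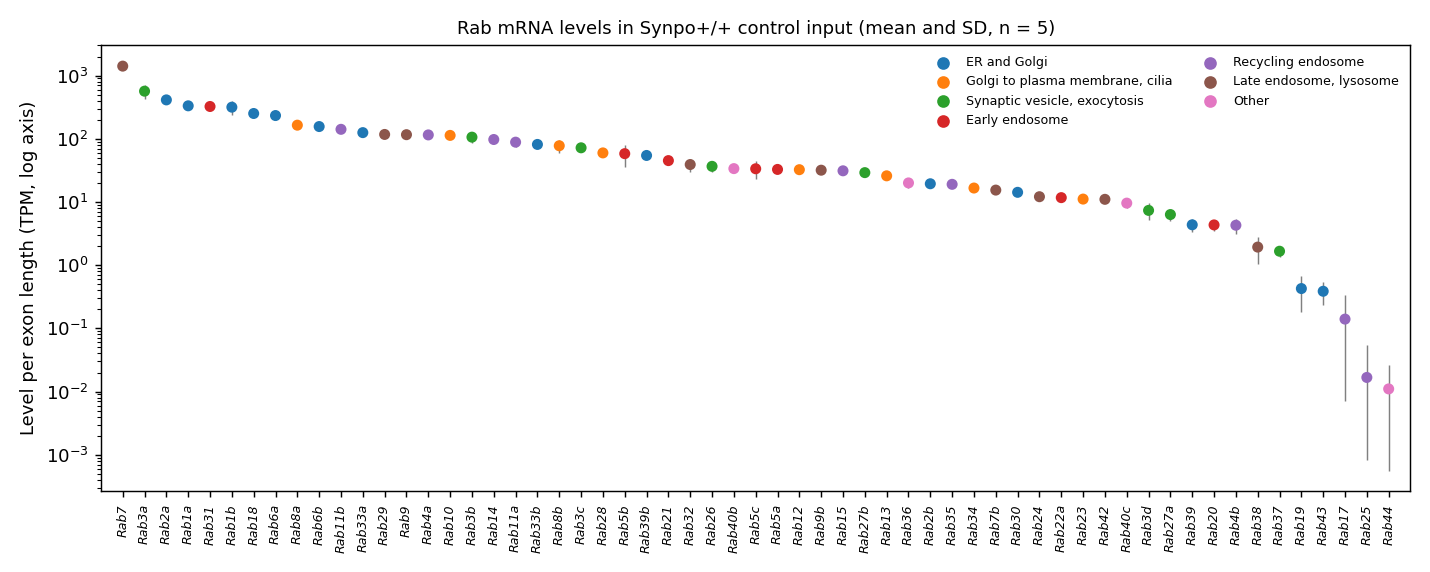
Level of the 59 Rab genes in Synpo+/+ control input, ordered by level and coloured by class. Points are the mean TPM of 5 libraries on a log axis and bars the SD. Lower bars that would reach 0 are cut at 5% of the mean. Rab7 at 1410 TPM and Rab3a at 566 TPM stand highest, and Rab44 at 0.011 TPM lowest.

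The first comparison asked how Rab transcripts were distributed between the synaptopodin coIP and its input. In Synpo+/+ control cultures, 33 of 55 tested Rab genes were lower in coIP than in input and 1 was higher, where 25.5% of all 18222 tested genes were lower and 29.6% higher. The median log2 fold change (coIP over input) was -0.49 for the Rab genes and 0.04 for all genes. Rab genes together took 0.659 to 0.677% of the counts in the 5 input libraries and 0.42 to 0.511% in the 5 coIP libraries, ranges that did not overlap. By class, 11 of 13 ER and Golgi Rabs were lower (median -0.91), as were 6 of 9 late endosome and lysosome Rabs (median -0.75) and 5 of 8 synaptic vesicle Rabs (median -0.57). Of the Golgi to plasma membrane, tubules and cilia class, 5 of 8 were lower and 1 was higher, with a median of -0.29. The early endosome Rabs (3 of 7 lower, median -0.44), the recycling endosome Rabs (3 of 7, median -0.43) and the other Rabs (0 of 3, median -0.19) completed the classes, and differences between classes were not tested.

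Among the synaptic vesicle Rabs, Rab3b was at 181, 128, 104, 108 and 107 CPM in the 5 control inputs and at 74.4, 53.4, 34.1, 38.3 and 40.5 CPM in the matching coIPs. The lowest input lay above the highest coIP, with a log2 fold change of -1.36 ± 0.205 (SE; adjusted p = 6.09e-05, edgeR quasi-likelihood test with Benjamini-Hochberg adjustment over all genes tested, as for every adjusted p below). Rab3a also fell, from 277 to 575 CPM in input to 141 to 334 CPM in coIP, but its groups overlapped (-0.92 ± 0.208, adjusted p = 0.00169). Rab27b, a secretory vesicle Rab, was lower by a similar size (-0.94 ± 0.103, adjusted p = 3.54e-06). Rab3d, Rab37 and Rab26, a vesicle Rab linked to autophagy at synapses, gave no call in this class. Nor did Rab15, which belongs to the recycling endosome class. Rab15 was at 40.8 to 52.4 CPM in input and 47.3 to 52.2 CPM in coIP (0.07 ± 0.0874, adjusted p = 0.502), and Rab26 at 24.7 to 40.5 and 23.7 to 39.5 CPM (-0.12 ± 0.153, adjusted p = 0.526).

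Rab9b gave the smallest p-value of the 55. This late endosome Rab, which with Rab9 returns receptors from late endosomes to the Golgi apparatus, was at 38.2, 43.5, 44.5, 43.0 and 40.5 CPM in input and 17.3, 17.5, 17.8, 15.8 and 17.5 CPM in coIP. The groups stood far apart for so small a spread within each (-1.27 ± 0.0857, adjusted p = 2.33e-07). Rab7 was at 1380, 1180, 1270, 1180 and 1120 CPM in input and 610, 650, 494, 549 and 594 CPM in coIP (-1.06 ± 0.0914, adjusted p = 6.33e-07). Rab32, a Rab of lysosome-related organelles, fell by 1.02 ± 0.138 on the log2 scale (adjusted p = 2.42e-05).

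Of the Golgi-linked Rabs, Rab39b, mutated in X-linked intellectual disability, was at 68.6, 57.3, 62.2, 58.9 and 60.7 CPM in input and 29.3, 29.6, 24.9, 22.7 and 27.3 CPM in coIP (-1.18 ± 0.0957, adjusted p = 4.28e-07). Its paralog Rab39 was at 4.08, 4.1, 5.14, 3.13 and 4.96 CPM in input and 2.28, 2.07, 1.28, 1.96 and 1.66 CPM in coIP (-1.17 ± 0.209, adjusted p = 0.00026). Rab8a, which carries cargo from the Golgi to the plasma membrane, was at 288, 247, 259, 251 and 230 CPM in input and 121, 131, 107, 130 and 131 CPM in coIP (-1.02 ± 0.0877, adjusted p = 6.25e-07). For all 3 genes every coIP library lay below every input library.

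Rab34, which acts in lysosome positioning and ciliogenesis, was the 1 member that was higher in the coIP. It was at 14.4, 15.7, 12.7, 13.7 and 9.52 CPM in input and 16.3, 18.3, 19.2, 19.7 and 13.6 CPM in coIP. The groups overlapped, and the call (0.42 ± 0.145, adjusted p = 0.0242) was lost in 4 of the 10 fits that left out 1 library. Because coIP and input of a number came from 1 lysate, the fit was repeated with the replicate number as a block. There Rab34 kept its value (0.42, adjusted p = 0.00246), Rab24, a Rab linked to autophagosomes, joined it (0.31, adjusted p = 0.0392), and Rab11a, Rab31 and Rab6a were additionally called lower, for 36 lower and 2 higher.

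In lesioned Synpo+/+ cultures 39 of 55 Rab genes were lower in coIP and 3 were higher, beside 27.8% and 30.5% of all 18229 genes. The Rab median was -0.68, against 0.02 for all genes. Rab3b (-1.47 ± 0.16), Rab9b (-1.38 ± 0.179), Rab39b (-1.25 ± 0.111) and Rab2b (-1.29 ± 0.118), an ER-to-Golgi Rab with the overlap named above, were again among the largest decreases. Rab32 was at 44.6, 35.7, 55.6, 54.5 and 58.0 CPM in input and 18.1, 16.1, 19.4, 12.3 and 27.9 CPM in coIP (-1.39 ± 0.188, adjusted p = 3.23e-05). Rab33a, a Golgi Rab implicated in axonal vesicle transport, was at 42.7, 42.1, 41.6, 45.3 and 40.4 CPM in input and 19.9, 12.7, 18.6, 16.6 and 21.8 CPM in coIP (-1.23 ± 0.123, adjusted p = 3.98e-06). Neither gene's groups overlapped.

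The 3 members higher after lesion were Rab34, Rab24 and Rab43. Rab34 was at 6.35, 6.92, 7.39, 10.1 and 13.4 CPM in input and 13.9, 12.7, 13.8, 14.6 and 18.9 CPM in coIP (0.76 ± 0.203, adjusted p = 0.0055), with 1 coIP library inside the input range. Rab24 was at 6.71, 6.92, 8.17, 7.04 and 6.85 CPM in input and 10.7, 10.8, 10.5, 12.2 and 11.7 CPM in coIP (0.67 ± 0.125, adjusted p = 0.000411), without overlap. Rab43 was barely detected, at 0.359, 0, 0.624, 0.525 and 0.406 CPM in input and 0.846, 1.38, 1.08, 2.7 and 1.37 CPM in coIP (1.97 ± 0.543, adjusted p = 0.00648). Rab24 and Rab43 are 2 of the 4 members whose reads cannot be separated from those of an overlapping gene.

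In the libraries labelled Synpo-/- the same direction held, with 32 of 56 Rab genes lower and 2 higher, beside 16.4% and 15.0% of all 20892 genes, and a Rab median of -0.62 against 0.02 for all genes. Rab39 went from 5.56 and 3.64 CPM in input to 1.34 and 1.43 CPM in coIP (-1.76 ± 0.318, adjusted p = 0.00166). Rab9b went from 40.5 and 27.1 to 11.8 and 13.5 CPM (-1.45 ± 0.199, adjusted p = 0.000404), and Rab37, a secretory granule Rab, from 3.29 and 3.49 to 1.4 and 1.25 CPM (-1.39 ± 0.313, adjusted p = 0.00582). Rab37 gave no call in Synpo+/+ control cultures (-0.19 ± 0.227, adjusted p = 0.488). Rab32 went from 40.9 and 46.5 to 16.2 and 18.4 CPM (-1.37 ± 0.156, adjusted p = 0.000222), Rab1b from 232 and 256 to 123 and 125 CPM (-1.01 ± 0.131, adjusted p = 0.000329) and Rab8a from 276 and 261 to 144 and 127 CPM (-1.01 ± 0.134, adjusted p = 0.000351). Every coIP library was below every input library for these genes. The 2 higher members were Rab24, from 7.89 and 8.47 to 14.3 and 13.7 CPM (0.74 ± 0.184, adjusted p = 0.00968), and Rab34, from 13.5 and 14.1 to 21.5 and 21.4 CPM (0.61 ± 0.163, adjusted p = 0.0143).

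Across the 3 comparisons, which have no library in common, 28 Rab genes were lower in each and Rab34 was higher in each, while 13 were called in none or could not be tested (Rab3d, Rab4b, Rab13, Rab15, Rab17, Rab19, Rab23, Rab25, Rab26, Rab36, Rab38, Rab40c and Rab44). How many of all genes were called in the same direction in all 3 was not counted. Rab3a illustrates a member whose values differed between comparisons. It was at 383 and 390 CPM in input and 350 and 359 CPM in coIP of the libraries labelled Synpo-/- (-0.16), where its call was absent. The difference in coIP enrichment between Synpo+/+ control and the libraries labelled Synpo-/- was tested as an interaction. No Rab gene was called, as were 0.0% of all 20621 genes, although 7 Rab genes had an unadjusted p below 0.05, and DESeq2 called 0 as well. The processing notes of the coIP and input libraries labelled Synpo-/- differ from those of the other libraries, so genotype and library set cannot be told apart in this test.

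**Figure D2:**
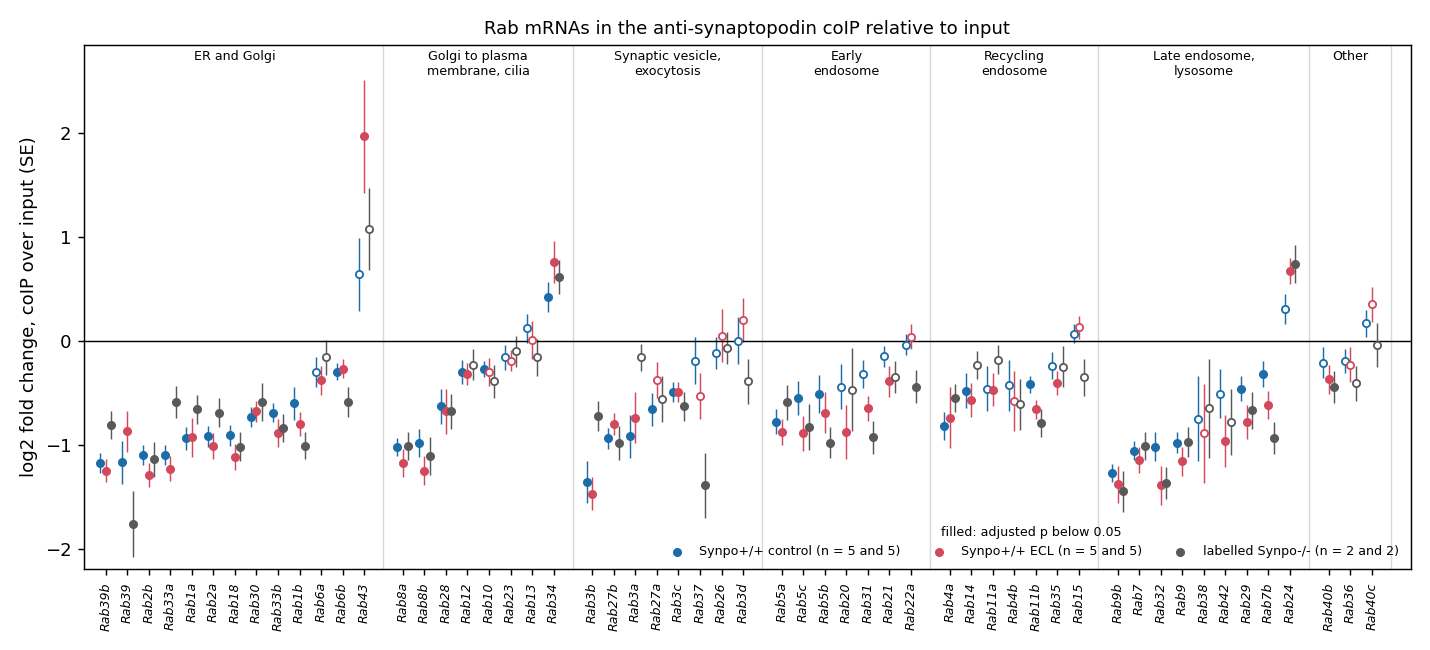
Log2 fold change of coIP over input for each tested Rab gene in Synpo+/+ control, Synpo+/+ ECL and libraries labelled Synpo-/-, grouped by class; points are estimates, bars the SE, and filled points passed an adjusted p of 0.05. Most points lie below 0 in all 3 comparisons, with medians of -0.49, -0.68 and -0.62, and Rab34 lies above 0 in each.

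Transcript length moved with coIP enrichment across the transcriptome, so it was set beside the Rab values. Over all protein-coding genes tested in Synpo+/+ control cultures the rank correlation of the log2 fold change with exonic length was 0.5 across genes, while over the 55 Rab genes it was 0.13. Rab genes are short, with a median exonic length of 3538 bases against 4529. The shortest 18 Rab genes (761 to 2610 bases) had a median log2 fold change of -0.58, while the 2885 coding genes in that length range had a median of -0.54. In the same range the medians were -0.84 and -0.64 after lesion and -0.65 and -0.39 in the libraries labelled Synpo-/-. The longest 19 (4529 to 13589 bases) had a median of -0.42, while the 6627 coding genes of that length had a median of 0.24. The same contrast among the longest genes was -0.57 against 0.23 after lesion and -0.59 against 0.14 in the libraries labelled Synpo-/-.

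With the length trend of each library removed, 30 Rab genes were lower and 4 higher in Synpo+/+ control, beside 20.4% and 29.0% of all genes. In Synpo+/+ ECL they were 29 and 5, beside 21.1% and 30.5%, and in the libraries labelled Synpo-/- 29 and 2, beside 13.6% and 14.5%. The Rab medians were then -0.34, -0.41 and -0.54, and those of all genes 0.10, 0.11 and 0.07. Rab34 then reached 0.79, 1.21 and 0.83 and Rab24 0.77, 1.23 and 1.02 in the 3 comparisons, on the log2 scale. Of 12 markers of microglia, the resident macrophages of the brain, 5 were lower in the Synpo+/+ control coIP, 9 in ECL and 6 in the libraries labelled Synpo-/-. In each comparison 1 was higher. With the length trend kept, as for these counts, 25.5%, 27.8% and 16.4% of all genes were lower and 29.6%, 30.5% and 15.0% higher. Other lists also had lower members in Synpo+/+ control, among them 3 of 6 interneuron and 3 of 7 granule cell markers, each with 1 higher. Of 8 astrocyte markers 3 were higher and none was lower. The summed microglia level was 979 to 1550 CPM in control input and 676 to 1190 CPM in control coIP, with overlap. The part of these cell types in the Rab result was not tested, and in bulk samples fewer cells of a type and less RNA per cell cannot be told apart.

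**Figure D3:**
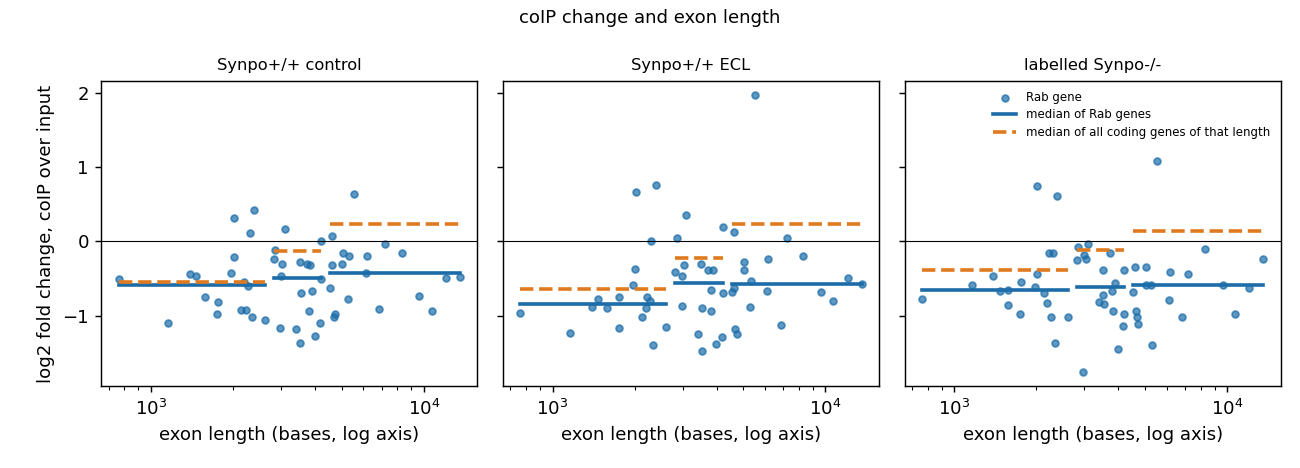
Log2 fold change of coIP over input against exonic length in bases (log axis) for the Rab genes in the 3 comparisons; horizontal lines mark the median of the Rab genes and of all protein-coding genes in each length range. In the longest range the Rab medians (-0.42, -0.57 and -0.59) lie below those of the other genes (0.24, 0.23 and 0.14).

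The coIP was also read out for the genes of Rab regulators and partners. In Synpo+/+ control cultures 17 of 31 GEF genes were higher in coIP and 3 lower (median 0.53), 17 of 38 GAP genes were higher and 4 lower (median 0.28), and 24 of 41 effector genes were higher and 3 lower (median 0.44), where 29.6% of all genes were higher and 25.5% lower. Madd, the GEF of Rab3 proteins, was higher by 0.86 on the log2 scale, Dennd4b by 1.16, the GAPs Sgsm2 and Tbc1d16 by 1.40 and 1.17, the Rab11 effector Rab11fip3 by 1.57, the motor Myo5a by 0.94 and the active zone protein Rims1 by 0.69. Those that were lower included Rabif (-1.37), Tbc1d7 (-0.90) and Rilpl2 (-0.63). Of the 7 genes that attach Rab proteins to membranes or extract them, 5 were lower and 1 was higher (median -0.50). Gdi2 (-0.50), the Rab escort protein Chm (-0.62), the geranylgeranyl transferase subunit Rabggtb (-0.63) and Rabac1 (-0.67) were among the lower genes, and the partner subunit Rabggta (0.30) was higher.

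After lesion 18 of 31 GEFs, 17 of 38 GAPs and 23 of 42 effectors were higher and 3, 4 and 3 lower, beside 30.5% and 27.8% of all genes. In the libraries labelled Synpo-/- 7 of 31, 6 of 39 and 8 of 43 were higher and 3 of each list lower, beside 15.0% and 16.4% of all genes. Of the prenylation and GDI genes 5 of 7 and 1 of 7 were lower.

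GEF genes are long, with a median exonic length of 6858 bases, and these counts changed when the length trend was removed. In Synpo+/+ control 11 GEFs, 11 GAPs and 18 effectors were higher and 4, 5 and 7 lower, beside 29.0% and 20.4% of all genes. Their medians were then 0.25, 0.09 and 0.33 where that of all genes was 0.10. In Synpo+/+ ECL 11, 11 and 20 were higher and 4, 7 and 7 lower, beside 30.5% and 21.1%. The 11 of 38 GAPs that were higher in each lay near the share of all genes. In the libraries labelled Synpo-/- 3 GEFs, 2 GAPs and 5 effectors were higher and 4, 4 and 5 lower, beside 14.5% and 13.6%. No list had more higher than lower members there, and each had a smaller share of higher members than all genes.

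The second comparison asked which Rab genes differ between the DG, whose principal cells are granule cells, and CA3, whose principal cells are pyramidal cells that receive granule cell mossy fibres. In control libraries labelled Synpo-/-, the larger set, 23 of 55 Rab genes were lower in DG and 5 were higher, beside 12.5% and 13.1% of all 21408 genes. Rab26 had the largest difference. It was at 19.9 to 37.5 CPM in the 6 CA3 libraries (median 26.4) and at 4.62 to 12.1 CPM in the 7 DG libraries (median 8.15), with a log2 fold change (DG over CA3) of -1.58 ± 0.177 (adjusted p = 1.8e-06). Rab15, which sorts receptors at recycling endosomes, was at 58.5 to 79.6 CPM in CA3 (median 60.8) and 25.3 to 40.8 CPM in DG (median 31.3; -0.93 ± 0.102, adjusted p = 1.33e-06). Neither Rab26 nor Rab15 overlapped between the regions.

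Rab6b, the brain-enriched Golgi Rab, was at 269 to 370 CPM in CA3 (median 305) and 177 to 248 CPM in DG (median 198; -0.54 ± 0.0846, adjusted p = 8.09e-05). Rab33a was at 57.7 to 78.4 CPM in CA3 (median 59.0) and 31.0 to 41.5 CPM in DG (median 40.2; -0.64 ± 0.0898, adjusted p = 2.47e-05), and Rab29, a lysosome and Golgi Rab that recruits the kinase LRRK2, at 27.6 to 39.2 CPM (median 36.9) and 13.6 to 25.2 CPM (median 19.0; -0.75 ± 0.117, adjusted p = 8.01e-05). These 3 were separated without overlap. Rab3a was at 127 to 261 CPM in CA3 (median 188) and 63.7 to 141 CPM in DG (median 103), with overlap (-0.81 ± 0.173, adjusted p = 0.00173). Of the 13 ER and Golgi Rabs tested, 10 were lower in DG.

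The 5 members higher in DG were Rab27b, Rab3b, Rab40b, Rab36 and Rab8b. Rab27b was at 35.3 to 56.5 CPM in CA3 (median 45.5) and 63.1 to 89.5 CPM in DG (median 78), without overlap (0.85 ± 0.104, adjusted p = 5.21e-06). Rab40b, a Rab that assembles with a ubiquitin ligase, was at 16.7 to 29.8 CPM in CA3 (median 23.7) and 24.2 to 39.3 CPM in DG (median 28.1; 0.47 ± 0.121, adjusted p = 0.00675), with overlap. Rab3b was higher by 0.55 ± 0.0963 (adjusted p = 0.000275), Rab8b by 0.37 ± 0.0849 (adjusted p = 0.00323) and Rab36 by 0.38 ± 0.116 (adjusted p = 0.0215) on the log2 scale. Thus the exocytic Rabs moved in both directions, Rab3a and Rab26 toward CA3 and Rab27b and Rab3b toward DG.

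In Synpo+/+ control libraries 6 of 56 Rab genes were lower in DG and none was higher, beside 2.75% of all 25656 genes lower. All 6 were also lower in the control libraries labelled Synpo-/-, with which this comparison shares no library. The share of all genes lower in both was not counted. Rab26 was at 25.8 and 20.4 CPM in CA3 and 9.48, 7.63, 10.1 and 7.57 CPM in DG (-1.39 ± 0.183, adjusted p = 0.000394). Rab15 was at 63.1 and 47.9 CPM in CA3 and 30.8, 33.0, 29.2 and 31.4 CPM in DG (-0.82 ± 0.147, adjusted p = 0.00373), and Rab6b at 346 and 291 CPM in CA3 and 204, 211, 181 and 195 CPM in DG (-0.67 ± 0.135, adjusted p = 0.008). None of the 3 overlapped. Rab2a (-0.61), Rab5a (-0.59), the early endosome Rab, and Rab1b (-0.55) were the others. Without CA3 control replicate 1, which left a lone CA3 library, 1 Rab gene was called.

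Cell type markers moved with region in the same libraries. All 7 granule cell markers were higher in DG of both control groups, and 4 and 6 of 7 CA3 pyramidal cell markers were lower in Synpo+/+ and in libraries labelled Synpo-/-. Oligodendrocyte markers were lower in DG, 5 of 8 in Synpo+/+ and 8 of 8 in the libraries labelled Synpo-/-, where their summed level was 534 to 1600 CPM in DG and 1890 to 3040 CPM in CA3. Markers of CA1 and subiculum were higher in DG (2 and 4 of 5), as were interneuron markers (2 and 4 of 6), and astrocyte markers were lower (1 and 4 of 8). The part of these cell types in the Rab differences was not tested.

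Regulators and effectors were read out between the regions in the control libraries labelled Synpo-/-, where 13.1% of all genes were higher in DG and 12.5% lower. Of 31 GEFs 3 were higher and 6 lower in DG, of 38 GAPs 6 and 8, of 43 effectors 9 and 6, and of the 7 prenylation and GDI genes 1 and 1. Among the partners of Rab3 and Rab27 at the synapse, Rims3 (0.98 ± 0.16, adjusted p = 0.000137) and Rph3a (0.62 ± 0.158, adjusted p = 0.00615) were higher in DG, and Rims1 (-0.70 ± 0.0823, adjusted p = 3.13e-06) and Sytl4 (-0.97 ± 0.251, adjusted p = 0.0069) were lower. Myo5b, the motor that moves Rab11 recycling endosomes, was lower in DG by the largest amount of the 43 effectors (-1.47 ± 0.136, adjusted p = 1.68e-07). The GAP Rabgap1l (-0.73 ± 0.0686, adjusted p = 2.03e-07) and the GEF Ankrd27 (-0.68 ± 0.0856, adjusted p = 7.76e-06) were lower as well.

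In lesioned libraries labelled Synpo-/- 7 of 55 Rab genes were lower in DG and 6 higher, beside 6.24% and 7.37% of all 22767 genes. Rab26 was at 21.8 to 38.1 CPM in 6 CA3 libraries (median 26.2) and 10.1, 6.54, 15.2 and 16.3 CPM in DG (-1.18 ± 0.231, adjusted p = 0.00281). Rab15 was at 50.8 to 72.2 CPM in CA3 (median 60.0) and 24.7, 27.1, 32.4 and 30.5 CPM in DG (-1.05 ± 0.117, adjusted p = 3.25e-05), and Rab6b at 258 to 364 CPM in CA3 (median 311) and 182, 184, 200 and 187 CPM in DG (-0.69 ± 0.11, adjusted p = 0.000625). All 3 were again lower in every DG library than in any CA3 library. The other lower members were Rab6a (-0.65), Rab33a (-0.64), Rab39b (-0.49) and Rab2a (-0.41).

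Rab40b was higher in the lesioned DG, at 31.9, 32.8, 36.1 and 40.3 CPM against 17.5 to 27.1 CPM in CA3 (median 21.8; 0.69 ± 0.136, adjusted p = 0.00296), without overlap. Rab32 (0.58), Rab13 (0.55), Rab7b (0.48), Rab36 (0.47) and Rab34 (0.45) were the other members higher there, where 8 of 12 microglia markers and 5 of 8 astrocyte markers were also higher. Rab32 kept its call in all 15 alternative fits, Rab13 in 11 and Rab36 in 9, but Rab7b and Rab34 each in only 5. Omitting CA3 ECL replicate 6 raised the number of called Rab genes from 13 to 22, and omitting CA3 ECL replicate 4, CA3 ECL replicate 5 or DG ECL replicate 1 lowered it to 8 in each case.

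In lesioned Synpo+/+ libraries 1 of 56 Rab genes, Rab11a, the main Rab of recycling endosomes, was lower in DG, beside 0.508% of all 24029 genes. It was at 243, 225 and 285 CPM in CA3 and at 93.3 to 183 CPM in DG (median 152; -0.74 ± 0.153, adjusted p = 0.0336). The groups did not overlap, yet the call was lost when any single library other than Synpo+/+ DG ECL replicate 5 was left out. With that replicate left out, Rab11a was at -0.83 ± 0.135 (adjusted p = 0.000304). Without Synpo+/+ DG ECL replicate 5, the library low in Prox1, 20 of 56 Rab genes were lower in DG and 2 higher. Of all 23965 genes 12.3% were lower and 19.8% were called in either direction, so the 2 higher Rab genes do not exceed the share of all genes. Rab26 (-1.66), Rab3a (-1.27), Rab15 (-1.0), Rab4b (-0.92), which shares exonic bases with another gene, and Rab33a (-0.84) then led. Rab13 (0.42) and Rab40b (0.37) were higher. Rab26 was at 36.4, 39.7 and 42.0 CPM in the CA3 libraries and at 36.8 CPM in the omitted DG library, while the next highest DG library had 16.6 CPM.

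**Figure D4:**
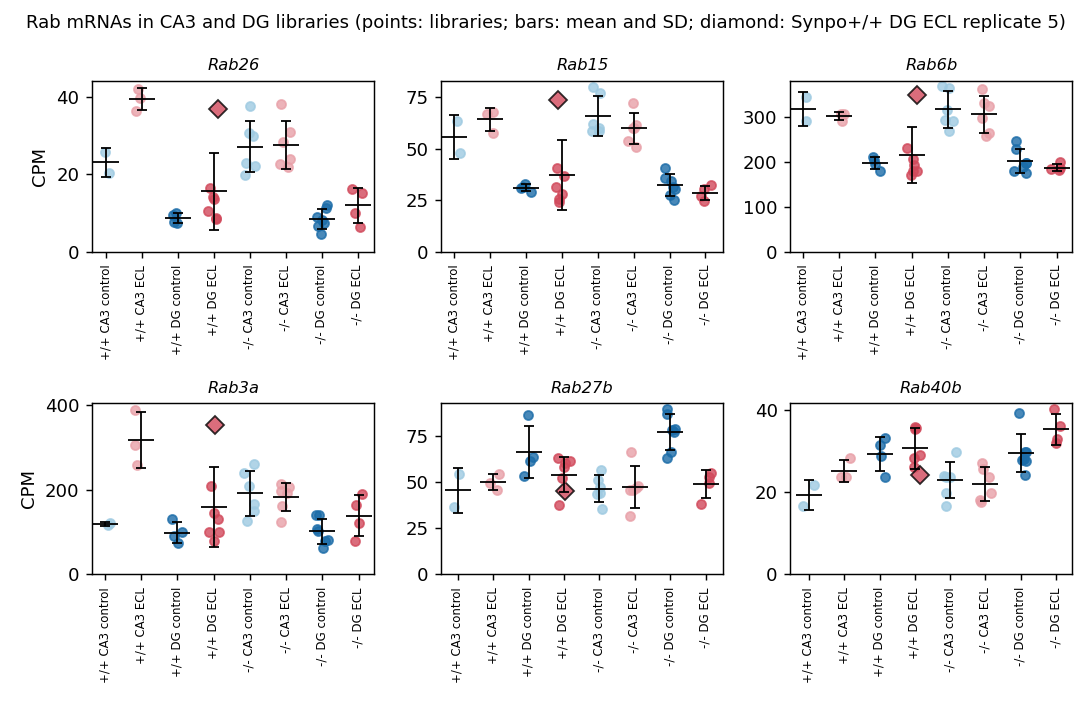
CPM of Rab26, Rab15, Rab6b, Rab3a, Rab27b and Rab40b in the 8 regional groups; each point is a library and the diamond marks Synpo+/+ DG ECL replicate 5. Rab26, Rab15 and Rab6b sit lower in DG than in CA3, apart from the diamond, and Rab27b sits higher in DG of the control libraries labelled Synpo-/- (63.1 to 89.5 CPM against 35.3 to 56.5 CPM).

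The third comparison concerned the response to entorhinal denervation, which removes the main excitatory input to the outer DG. In Synpo+/+ DG 9 of 56 Rab genes rose after ECL and none fell, beside 7.86% of all 23720 genes that rose and 4.31% that fell. In DG labelled Synpo-/- 4 of 55 rose and 2 fell, beside 5.17% and 3.36% of all 23310 genes. Rab29, Rab32 and Rab5c, an early endosome Rab, rose in both genotypes, which share no library. The share of all genes that rose in both was not counted.

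Rab32 was at 10.2, 10.2, 11.7 and 12.1 CPM in Synpo+/+ DG control and at 21.6 to 30.0 CPM in the 7 ECL libraries (median 23.8; 1.14 ± 0.125, adjusted p = 8.53e-05). In DG labelled Synpo-/- it was at 9.64 to 20.0 CPM in the 7 control libraries (median 14) and at 24.6, 24.6, 25.8 and 26.5 CPM after ECL (0.85 ± 0.156, adjusted p = 0.00283). The groups did not overlap in either genotype. Rab29 was at 16.7, 12.0, 15.5 and 18.4 CPM in Synpo+/+ control and 26.3 to 51.5 CPM after ECL (median 33.1; 1.12 ± 0.181, adjusted p = 0.0016). In DG labelled Synpo-/- Rab29 was at 13.6 to 25.2 CPM (median 19.0) and 40.0, 29.7, 32.6 and 35.8 CPM (0.81 ± 0.135, adjusted p = 0.00146), again without overlap. Rab5c, at a lower level, was at 5.85, 4.33, 7.17 and 4.33 CPM in Synpo+/+ control and 6.93 to 11 CPM after ECL (median 8.9; 0.61 ± 0.18, adjusted p = 0.0411), with overlap. In DG labelled Synpo-/- Rab5c was at 5.8 to 8.94 CPM (median 6.85) and 11.3, 9.62, 11.4 and 8.72 CPM (0.52 ± 0.134, adjusted p = 0.0237), with overlap. The Rab5c call was lost in 7 of the 11 fits that left out 1 Synpo+/+ library and in 2 of the 11 that left out 1 labelled Synpo-/-.

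The sequences just upstream of the 3 genes are shown because these were the members that rose in DG of both genotypes. They span bases 250 to 61 before the RefSeq start (190 bases, GRCm38.p6), 5′ to 3′ on the gene's strand, at chr1:131867027-131867216 (plus strand, Rab29), chr10:10558268-10558457 (minus strand, Rab32) and chr11:100738276-100738465 (minus strand, Rab5c). No annotated exon lies in these windows. Capitals mark AACTACANNTCCC on either strand, which is the longest word held by both strands of the Rab29 window with the letters that differ in Rab5c written as N, and was thus chosen from these sequences.
Rab29: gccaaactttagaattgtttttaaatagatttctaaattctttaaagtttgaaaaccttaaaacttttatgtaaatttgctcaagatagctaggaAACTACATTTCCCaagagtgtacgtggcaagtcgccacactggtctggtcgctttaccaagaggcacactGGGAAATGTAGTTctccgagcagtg
Rab32: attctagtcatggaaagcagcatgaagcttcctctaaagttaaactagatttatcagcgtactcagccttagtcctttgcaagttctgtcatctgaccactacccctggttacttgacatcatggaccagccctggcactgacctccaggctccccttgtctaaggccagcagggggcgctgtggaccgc
Rab5c: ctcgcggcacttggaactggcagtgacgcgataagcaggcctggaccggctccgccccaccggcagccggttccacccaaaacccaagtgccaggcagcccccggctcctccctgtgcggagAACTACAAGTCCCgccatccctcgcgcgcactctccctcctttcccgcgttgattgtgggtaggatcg
By its construction the motif occurred 2 times in the Rab29 window, once on each strand, and 1 time in the Rab5c window, and it was not found in the Rab32 window. It was present in 0.563% of all 32851 windows of this length. Of the 60 windows of the 48 Rab symbols in the table it was present in 2, namely the Rab29 and Rab5c windows it was built from. This Rab count was thus fixed by construction and cannot be set against the share of all windows. A match describes the letters only.

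Of the other members that rose in Synpo+/+ DG, Rab31, which works between the trans-Golgi network and endosomes, was at 92.6, 49.5, 74.3 and 79.5 CPM in control and 108 to 224 CPM after ECL (median 139; 0.99 ± 0.201, adjusted p = 0.00736). Rab13, a Rab of cell junctions and polarised delivery, was at 19.6, 13.3, 14.1 and 15.5 CPM and 22.4 to 28.6 CPM (median 24.8; 0.65 ± 0.124, adjusted p = 0.00463). Rab1b was at 37.4, 32.1, 33.4 and 32.6 CPM and 45.6 to 117 CPM (median 54.1; 0.90 ± 0.224, adjusted p = 0.0209), and Rab8a at 80.6, 58.2, 71.2 and 71.6 CPM and 84.0 to 125 CPM (median 102; 0.49 ± 0.122, adjusted p = 0.0209). Every ECL library lay above every control library for these 4 genes. Rab11b (0.73 ± 0.199, adjusted p = 0.0308) and Rab35 (0.54 ± 0.137, adjusted p = 0.022), both recycling or early endosome Rabs, completed the 9. Without Synpo+/+ DG ECL replicate 5 there were again 9, with Rab7 gained (0.38) and Rab5c lost, and the values of Rab1b and Rab31 went to 0.68 and 0.86. Leaving out DG control replicate 2, 3 or 4 reduced the 9 to 5, 5 and 4, while Rab13, Rab29, Rab31 and Rab32 were called in every such fit.

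In DG labelled Synpo-/- Rab7b, a lysosomal Rab of macrophage-lineage cells, also rose, from 5.71 to 9.62 CPM (median 7.37) to 12.1, 9.26, 9.63 and 11.5 CPM (0.48 ± 0.142, adjusted p = 0.0453), with overlap and with the call lost in 9 of the 11 fits that left out 1 library. Rab27b fell, from 63.1 to 89.5 CPM (median 78) to 37.8, 49.5, 52.6 and 54.9 CPM (-0.71 ± 0.127, adjusted p = 0.00251), without overlap. Rab30, a Golgi Rab, fell from 76.4 to 115 CPM (median 89.1) to 74.8, 75.0, 72.6 and 77.2 CPM (-0.37 ± 0.105, adjusted p = 0.0356), with overlap and with the call lost in 8 of these fits. Without DG ECL replicate 3, 3 Rab genes were called in place of 6.

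Glial markers rose in the same libraries. All 12 microglia markers rose in Synpo+/+ DG, with a summed level of 554 to 742 CPM in control and 1370 to 1700 CPM after ECL, and 10 of 12 rose in DG labelled Synpo-/-, from 670 to 1380 CPM to 1430 to 1910 CPM. Of the 8 astrocyte markers 6 and 7 rose, and without Synpo+/+ DG ECL replicate 5 the Synpo+/+ counts were 12 and 7. No marker of either list was at 0 in any group, and the part of these cells in the Rab changes was not tested. Among the Rab regulators, 5 of 31 GEFs rose in Synpo+/+ DG and none fell, among them Rab3il1 (0.78 ± 0.144, adjusted p = 0.00389), and 2 of 38 GAPs rose, Tbc1d7 (0.65 ± 0.196, adjusted p = 0.042) and Tbc1d19 (0.56 ± 0.152, adjusted p = 0.0303). Of 44 effectors 2 rose and 1 fell, and of the 7 prenylation and GDI genes none was called. The GAP and effector counts lay below the 7.86% of all genes that rose. Without Synpo+/+ DG ECL replicate 5, 4 GEFs, 2 GAPs, 2 effectors and 1 prenylation or GDI gene rose and 1 GAP and 1 effector fell, beside 8.46% and 5.3% of all genes. In DG labelled Synpo-/- 3 GEFs and 1 effector rose, and 2 GEFs, 3 GAPs, 5 effectors and 1 prenylation or GDI gene fell, beside 5.17% and 3.36% of all genes.

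In Synpo+/+ CA3, with 2 control and 3 ECL libraries, 4 of 55 Rab genes rose, beside 1.5% of all 22340 genes. Rab3a was at 122 and 116 CPM in control and 258, 305 and 388 CPM after ECL (1.31 ± 0.162, adjusted p = 0.0165). Rab4a, a Rab of fast endosomal recycling, was at 37.8 and 31.5 CPM and 68.5, 63.3 and 74.7 CPM (0.88 ± 0.138, adjusted p = 0.027). Rab11b was at 54.4 and 61.5 CPM and 88.9, 109 and 142 CPM (0.86 ± 0.177, adjusted p = 0.0437), and Rab1b at 48.9 and 51.2 CPM and 85.2, 88.9 and 104 CPM (0.78 ± 0.126, adjusted p = 0.0283). None of the 4 overlapped, but these calls rested on few libraries. Leaving out control replicate 1 gave 2 calls, control replicate 2 gave 9, and ECL replicate 1 or ECL replicate 2 gave 0, and with the length trend removed 1 was called. In these libraries 1 of 12 microglia markers was called higher, and all 12 had positive values (median 0.44). Their summed level was 579 to 984 CPM in control and 1160 to 1540 CPM after ECL, without overlap. The part of these cells in the Rab changes was not tested.

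In CA3 labelled Synpo-/- (6 control and 6 ECL libraries) edgeR called no Rab gene, nor did DESeq2, beside 0.077% of all 20772 genes, and 6 Rab genes had an unadjusted p below 0.05. Rab3a was at 127 to 261 CPM in control (median 188) and 125 to 214 CPM after ECL (median 195; -0.06 ± 0.156, adjusted p = 0.961). Rab4a (0.10 ± 0.161), Rab11b (-0.13 ± 0.137) and Rab1b (-0.22 ± 0.149) likewise had overlapping groups. Whether the response to ECL differed between genotypes was tested as an interaction. In CA3 no Rab gene was called, as were 0.0% of all 26821 genes, with 18 Rab genes at an unadjusted p below 0.05 and the value of Rab3a at -1.41 ± 0.308 (adjusted p = 0.117). DESeq2 called 4 Rab genes in that test. In DG no Rab gene was called by either tool, beside 0.00381% of all 26245 genes, with 8 at an unadjusted p below 0.05, and edgeR called none without Synpo+/+ DG ECL replicate 5 either.

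**Figure D5:**
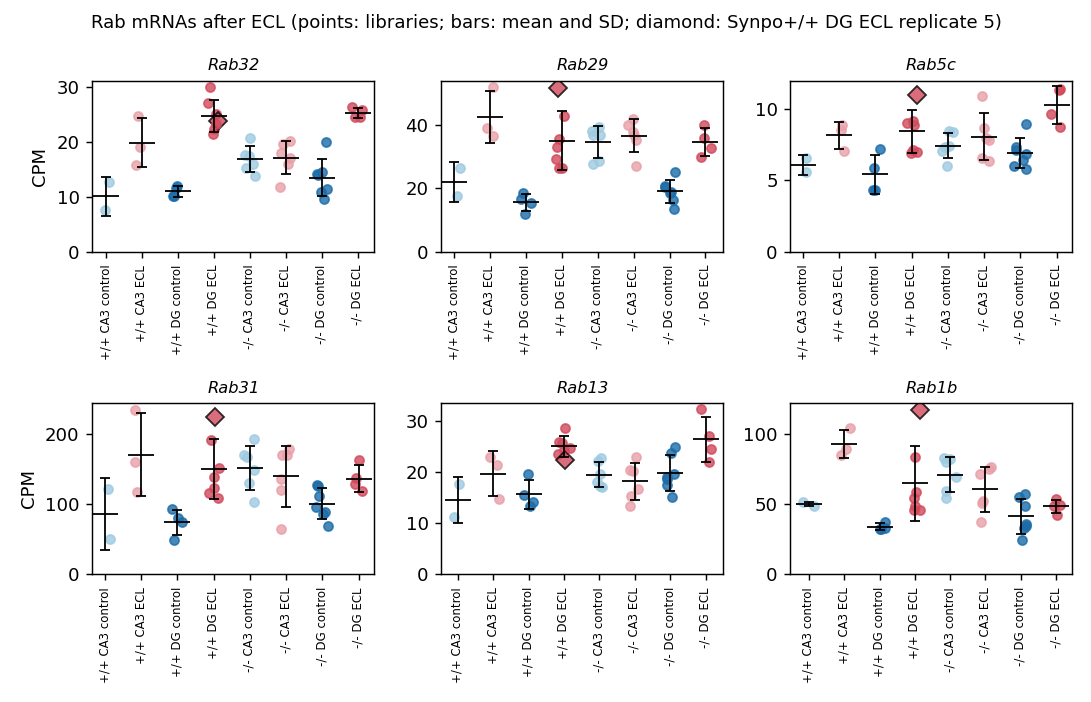
CPM of Rab32, Rab29, Rab5c, Rab31, Rab13 and Rab1b in control and ECL libraries of each region and genotype; each point is a library and the diamond marks Synpo+/+ DG ECL replicate 5. Rab32 and Rab29 sit higher after ECL in DG of both genotypes (for Rab32, 21.6 to 30.0 against 10.2 to 12.1 CPM in Synpo+/+), and the groups overlap in CA3 labelled Synpo-/-.

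Precleared lysates of whole cultures were compared in the input libraries. In Synpo+/+ input 2 of 55 Rab genes were higher after ECL and 5 lower, beside 2.45% and 3.16% of all 17951 genes. Rab3a was at 413, 575, 441, 397 and 277 CPM in control and 133, 138, 128, 188 and 239 CPM after ECL (-1.35 ± 0.198, adjusted p = 0.00229). Rab4a was at 72.0, 74.9, 72.9, 64.2 and 53.7 CPM and 24.8, 23.3, 27.3, 42.2 and 53.5 CPM (-0.98 ± 0.207, adjusted p = 0.0155). Neither overlapped, though ECL replicate 5 nearly reached the lowest control for Rab4a. Rab28, a Rab of photoreceptor and ciliary transport, was at 75.6, 93.2, 91.4, 92.0 and 95.1 CPM and 49.1, 41.9, 49.2, 72.7 and 69.0 CPM (-0.67 ± 0.142, adjusted p = 0.0161), without overlap.

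Both vesicle Rabs Rab3b and Rab27b were lower as well. Rab3b was at 181, 128, 104, 108 and 107 CPM in control and 99.5, 80.3, 88.8, 84.5 and 81.3 CPM after ECL (-0.54 ± 0.132, adjusted p = 0.0302), and Rab27b at 106, 97.8, 103, 103 and 106 CPM and 79.1, 95.6, 77.2, 79.2 and 85.0 CPM (-0.32 ± 0.0739, adjusted p = 0.0239). The groups did not overlap for either. Rab7b was higher, from 24.4, 28.2, 23.7, 22.6 and 20.0 CPM to 33.8, 32.6, 33.1, 33.7 and 35.5 CPM (0.50 ± 0.0939, adjusted p = 0.00898), also without overlap. Rab32 was at 23.8, 26.3, 38.1, 35.0 and 28.0 CPM in control and 44.6, 35.7, 55.6, 54.5 and 58.0 CPM after ECL (0.71 ± 0.155, adjusted p = 0.0183), with overlap, and 5 of 12 microglia markers were higher in these libraries. Of 6 interneuron markers 1 was lower and all 6 had negative values (median -0.54), with a summed level of 1070 to 2180 CPM in control input and 853 to 1150 CPM in ECL input. The part of these cells in the Rab differences was not tested. Leaving out ECL replicate 3 gave 4 calls and ECL replicate 5 gave 12. Of the 59 members, Rab32 alone was called higher after ECL in input and in DG of both genotypes, and the same count over all genes was not made.

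In the coIP libraries no Rab gene was called between ECL and control, beside 0.314% of all 18449 genes, with 10 at an unadjusted p below 0.05. DESeq2 called 2, and omitting coIP ECL replicate 5 also gave 2. Rab3a was at 192, 334, 189, 238 and 141 CPM in control coIP and 99.1, 60.2, 76.1, 87.1 and 170 CPM in ECL coIP (-1.14 ± 0.258, adjusted p = 0.0773). Rab4a was at 36.2, 49.6, 31.3, 41.4 and 30.1 CPM and 19.9, 11, 15.1, 19.6 and 36.5 CPM (-0.88 ± 0.251, adjusted p = 0.176). In both cases ECL replicate 5 alone lay inside the control range.

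The genotypes were compared directly in each region and condition. No Rab gene was called in CA3 control, DG control, CA3 ECL or DG ECL, beside 0.00413%, 0.0166%, 0.00891% and 0.0166% of all genes, and 13, 5, 5 and 3 Rab genes had an unadjusted p below 0.05. DESeq2 called 5, 0, 1 and 0, and edgeR again called none in DG ECL without Synpo+/+ DG ECL replicate 5. The smallest adjusted p values belonged to CA3 control, where Rab11b was at 79.8 to 114 CPM (median 92.5) in 6 libraries labelled Synpo-/- and at 54.4 and 61.5 CPM in Synpo+/+ (0.66, adjusted p = 0.0987). In CA3 ECL the smallest adjusted p was that of Rab3a, at 125 to 214 CPM (median 195) in libraries labelled Synpo-/- and 258, 305 and 388 CPM in Synpo+/+ (-0.74, adjusted p = 0.418). Neither overlapped between the genotypes, and leaving out CA3 control replicate 6 labelled Synpo-/- gave 1 call in CA3 control.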

How the data were processed

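The deposited files hold raw read counts per gene, made by the authors from poly(A) RNA libraries (NEBNext Single Cell/Low Input kit). The submitters' processing notes name cutadapt 3.5, STAR 2.7.8a and featureCounts 2.0.1 with GRCm38 (mm10) for 59 libraries, and versions are not given in the sources used here for the 4 coIP and input libraries labelled Synpo-/-. Reads were not counted by strand.

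From the counts, genes passing filterByExpr were tested with edgeR 4.0.16 (R 4.3.3; TMM, quasi-likelihood test), fitting only the groups compared, and p-values were Benjamini-Hochberg adjusted over all genes tested (call at 0.05). Alternatives were DESeq2 1.42.0, RLE scaling, no filter, a lowess (span 0.3) removal of the length trend of each library, the replicate number as a block, and leaving out each library. Before use, the fit was tested on simulated counts with 200 changed genes. At a log2 change of 1 and of 0.5 it recovered 93% and 29% for coIP in Synpo+/+ control and 72% and 12% for coIP labelled Synpo-/-. For ECL in Synpo+/+ DG it recovered 81% and 13%, and for the control regions labelled Synpo-/- 93% and 47%. Small changes were thus often missed in the simulation. The real comparisons called far larger shares of genes, 55.0%, 31.4%, 12.2% and 25.5% in that order, which makes the adjusted threshold less strict. These recovery rates therefore do not carry over to them. CPM used TMM effective library sizes within the regional or the coIP set, and TPM the union exon length of GENCODE M25.

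Each regional library came from 1 culture, and p-values measure the spread between cultures. Rab members, their classes, the lists of GEFs, GAPs, effectors, prenylation and GDI genes, and the cell type markers were chosen with earlier results of these data known. Values in every library are given for called members, namely in each direction up to 4 with the largest change among those with a mean normalized count of at least 50 and up to 2 with the smallest adjusted p, and for members called in both genotypes after lesion; other members named were chosen after their values were seen. In coIP against input, deviations of same-numbered libraries from their group means correlated at 0.304 to 0.64 in Synpo+/+ control and 0.155 to 0.625 in Synpo+/+ ECL, so the numbers pair these libraries.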

Additional observations from a re-analysis of the deposited data

Results flagged for a closer look

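Among 248 groups of 4 to 10 libraries examined for the Rab genes named in the comparisons, 17 held a library whose gap to its nearest neighbour exceeded Dixon's 95% critical value, and chance alone gives about 1 in 20. Of these, 5 belonged to Synpo+/+ DG ECL replicate 5, the library low in Prox1. In that library Rab26 was at 36.8 CPM where the next highest of the 7 had 16.6, Rab15 at 73.5 CPM (next 40.7), Rab6b at 350 CPM (next 231), Rab33a at 70.1 CPM (next 38.9) and Rab6a at 811 CPM (next 563). The CA3 ECL libraries of the same genotype held 36.4 to 42.0 CPM of Rab26 and 57.7 to 67.6 CPM of Rab15.

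CA3 ECL replicate 6 labelled Synpo-/- was lowest for 3 members, with Rab8a at 57.4 CPM (next 88.5), Rab30 at 61.2 CPM (next 93.7) and Rab33a at 34.8 CPM (next 55.0). In the other regional groups, Rab3b was at 107 CPM in Synpo+/+ DG control replicate 1 (next 54.4), Rab40b at 39.3 CPM in DG control replicate 2 labelled Synpo-/- (next 29.8) and Rab33a at 39.4 CPM in DG ECL replicate 3 labelled Synpo-/- (next 33.6).

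In the coIP set, Rab24 was at 12.2 CPM in Synpo+/+ control coIP replicate 3 (next 9.79) and at 8.17 CPM in Synpo+/+ ECL input replicate 3 (next 7.04). Rab43 was at 2.7 CPM in Synpo+/+ ECL coIP replicate 4 (next 1.38) and at 0.227 CPM in Synpo+/+ control input replicate 4 (next 0.76). Rab9b was at 15.8 CPM in Synpo+/+ control coIP replicate 4 (next 17.3), and Rab28 at 75.6 CPM in Synpo+/+ control input replicate 1 (next 91.4).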

How the results depend on the processing

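Of 127 counts of called Rab genes under alternatives other than leaving out a library, 101 stayed within 1.5 times the reported count. No named value reversed among 1204, and 51 of 78 named results were called under every alternative. With DESeq2 the counts moved to 12 for ECL in Synpo+/+ CA3, 16 in input and 2 in coIP, 4 for the CA3 interaction, 2 for DG against CA3 in Synpo+/+ ECL, and 5 and 1 for genotype in CA3 control and CA3 ECL. Without the filter on low counts they were 16 for ECL in Synpo+/+ CA3, 2 in coIP, 3 for the CA3 interaction, 1 for the genotype by fraction interaction, 10 and 5 for the regions in Synpo+/+ control and ECL, and 7 and 1 for genotype in CA3 control and CA3 ECL. With the length trend removed, 1 was called for ECL in Synpo+/+ CA3 and 2 for the regions in Synpo+/+ ECL, and fitting all 4 groups of the region together gave 0 for ECL in Synpo+/+ CA3. The cause was not tested.

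The replicate block added Rab10 to the lower members in Synpo+/+ ECL coIP, and Rab10 and Rab27a to the lower and Rab43 to the higher members in coIP labelled Synpo-/-, where the lysate number gave 37 calls and the other numbering of the titles 32. A block with the length trend removed, chosen after seeing the data, gave 40, 37 and 32 calls in the 3 coIP comparisons. Elsewhere samples share only a number (in the regions labelled Synpo-/- control, 5 of 6 pairs correlated above 0.1, and 7 of 12 samples correlated best with their own number; in no comparison did all samples do so). There the block gave 11 calls for ECL in Synpo+/+ CA3, 3 in DG labelled Synpo-/-, 1 and 24 for the regions in Synpo+/+ control and ECL, 20 for the regions in ECL labelled Synpo-/-, 14 and 5 for genotype in CA3 control and CA3 ECL, and 1 for the genotype by fraction interaction.

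Leaving out 1 library gave 0 to 9 calls for ECL in Synpo+/+ CA3, 4 to 9 in Synpo+/+ DG, 3 to 7 in DG labelled Synpo-/-, 4 to 12 in input and 0 to 2 in coIP, 1 to 7 and 0 to 22 for the regions in Synpo+/+ control and ECL, 8 to 22 for the regions in ECL labelled Synpo-/-, and 0 to 1 for genotype in CA3 control. A lone library left in a group was assumed to vary like the other group. For coIP against input the ranges were 30 to 38, 37 to 43 and 25 to 38.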

Other observations

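Close paralogs can be set side by side in the coIP of Synpo+/+ control cultures. Rab3b was lower by 1.36 on the log2 scale while Rab3d was at 0.0 ± 0.227. Rab33a and Rab33b were both lower, at -1.10 and -0.69, as were Rab9 and Rab9b (-0.98 and -1.27) and Rab39 and Rab39b (-1.17 and -1.18). Differences between paralogs were not tested.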
